A study of Mus musculus with 16 samples.

Results

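The genes of the T-cell receptor signalling chains and of the co-receptors were examined in peak lists from cultured mouse CD8+ T cells. The members were 8 genes, Cd3e, Cd3d, Cd3g, Cd247, Cd8a, Cd8b1, Cd4 and Zbtb7b, of 26089 genes with a curated RefSeq transcription start site (TSS). They were taken by name. A peak belonged to a locus when it overlapped the gene body extended by 40 kb on each side. The 3 Cd3 genes formed 1 locus, as did the Cd8 pair, so that there were 5 loci with a summed length of 627 kb. Of 214352 peaks in the 12 deposited lists, 262 lay in these loci. With coordinates in mm10, 49 lay at the Cd3 cluster (chr9:44929572-45049663), 48 at Cd247 (chr1:165739952-165911153), 49 at the Cd8 pair (chr6:71282788-71419171), 51 at Cd4 (chr6:124824693-124928247) and 65 at Zbtb7b (chr3:89337644-89433673).

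The cells were CD8+ T cells from spleens of OT1 mice, a strain with a transgenic T-cell receptor that recognises an ovalbumin peptide. They were stimulated for 48 h with plate-bound antibody to CD3 (2 μg/ml) and soluble antibody to CD28 in the presence of IL-2 (20 ng/ml), and then grown for 3 days with IL-2. Throughout both phases they received 0.5 μM GSK2879552 (GSK), which irreversibly inhibits LSD1, a demethylase of histone H3, or vehicle (Veh). Chromatin immunoprecipitation with sequencing (ChIP-seq) was done with antibodies to RNA polymerase II (Pol II), LSD1, H3K27ac and the histone marks H3K4me3, H3K4me2 and H3K4me1, with 1 library per antibody and treatment. The methods of the study say that the ChIP-seq experiment was repeated, and the lists used here hold 1 of the repeats. No difference below was therefore set against a spread between replicates, and no test was run. The percent ranges given after a share are Wilson 95% intervals that cover counting error only.

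The T-cell receptor binds antigen but has no signalling tail of its own. The CD3 gamma, delta and epsilon chains, encoded by Cd3g, Cd3d and Cd3e, and the zeta chain, encoded by Cd247, carry the motifs that the kinase LCK phosphorylates. CD8, a dimer of the products of Cd8a and Cd8b1, and CD4 bind the MHC molecule and bring LCK to the receptor. Mature cytotoxic T cells keep CD8 and silence Cd4, for which RUNX3 acts on a silencer in the first intron of Cd4. ThPOK, encoded by Zbtb7b, is the transcription factor that directs the opposite, helper fate and represses the Cd8 genes. H3K4me3 marks active promoters, H3K4me1 and H3K4me2 mark enhancers and promoter flanks and are the substrates of LSD1, and H3K27ac marks active promoters and enhancers.

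Marker genes were read first to check the label of the cells. All 7 markers of CD8+ T cells (Cd3e, Cd3d, Cd3g, Cd8a, Cd8b1, Gzmb and Runx3) had an H3K4me3 peak within 1 kb of a TSS in both lists. Of the helper T-cell markers, Zbtb7b had one, and Cd4, Cd40lg and Foxp3 had none. Of 5 B-cell markers, Cd79b had one, and no H3K4me3 peak lay at the 3 NK-cell markers. Spi1 and Cd14 among 5 myeloid markers had one in the Veh list, and Cd14 alone in the GSK list. Pol II peaks lay at 4 of 7 CD8+ T-cell markers in Veh cells and at 6 in GSK cells. None lay at Zbtb7b, Cd4, Cd40lg, Foxp3 or the B-cell and NK-cell markers, and Spi1 had one in Veh cells. Whether other cells in the culture contributed to any peak below was not tested.

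H3K4me3 marked every member promoter but that of Cd4, in both treatments. A promoter was the window of 1 kb on either side of a curated TSS. Of the 8 members, 7 had H3K4me3 in the Veh list and 7 in the GSK list, against 50.2% and 51.3% of all genes. The GSK list held the same 7 genes as the Veh list. H3K4me1 lay at 5 members in each treatment (Cd3d, Cd3g, Cd247, Cd8a and Zbtb7b), where 30.4% of all genes in Veh cells and 36.9% in GSK cells had a peak. H3K4me2, by contrast, was found at Zbtb7b alone in Veh cells and at 0 members in GSK cells, while 39.2% and 28.3% of all genes had it. The Veh H3K4me2 list held 15219 peaks and the GSK list 9437, and with the Veh list shortened to the same length 0 members were left in it.

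Pol II, H3K27ac and LSD1 divided the members further. Pol II lay at the TSS windows of Cd3e, Cd247 and Cd8b1 in Veh cells, 3 of 8 members against 29.4% of all genes. In GSK cells it lay at 4 members (Cd3e, Cd3d, Cd3g and Cd8b1) against 25.0%. H3K27ac marked Cd3e, Cd247 and Cd8b1 in Veh cells against 20.6% of all genes, and no member in GSK cells, where the whole list reached 8.61% of genes. The GSK H3K27ac list held 2751 peaks and the Veh list 7410, and with the Veh list shortened to the same length 1 member was left in it. The LSD1 lists held different members. LSD1 lay at Cd8a and Cd8b1 in Veh cells, where 36.5% of all genes had a peak, and at Cd3e and Cd247 in GSK cells, where 41.8% had one. The Cd247 peak was just inside the GSK list, with a fold of 2.92 (−log10 p 3.66), and at a −log10 p of at least 5 Cd3e alone was left.

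**Figure D1:**
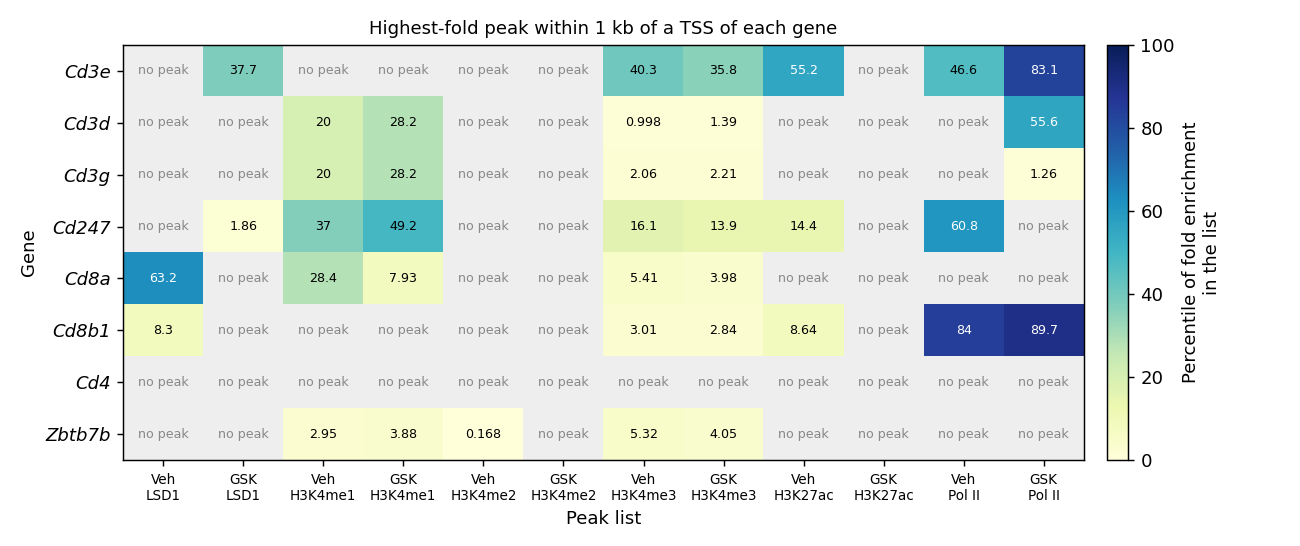
Percentile of fold enrichment, within its own list, of the highest-fold peak within 1 kb of a TSS, for the 8 genes (rows) in the 12 lists (columns), with grey cells where there was no peak. H3K4me3 is present in both treatments at 7 genes with percentiles from 0.998 to 40.3, and Cd4 is without a peak in every list.

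The H3K4me3 peaks of the members ranked low in fold and high in width. Fold enrichment, the ratio of ChIP signal to local background averaged over a broad region, was highest at Cd3e, with 5.25 in Veh cells and 5.1 in GSK cells. These values lay at the 40.3 and 35.8 percentile of the lists. Cd247 followed with 4.16 and 4.07. The other members lay lower, with 3.5 and 3.24 at Cd8a, 3.10 and 3.01 at Cd8b1, 3.49 and 3.26 at Zbtb7b, 2.86 and 2.83 at Cd3g, and 2.49 and 2.60 at Cd3d. The last of these values were at the 0.998 and 1.39 percentile of fold. Ranked by −log10 p instead, the same Cd3d peaks stood at the 42.0 and 46.4 percentile, and those of Cd8a at 60.2 and 55.7. Cd8a had the widest member peaks with 2752 bp in Veh and 2760 bp in GSK cells, where the median of all H3K4me3 peaks was 1034 bp and 1008 bp.

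Most of these peaks lay almost wholly inside the genes. At Cd8a the Veh peak began 35 bp downstream of the TSS and the GSK peak 47 bp downstream. At Cd8b1 the starts were 25 and 12 bp downstream, and at Cd3d 39 and 34 bp. Of the 6 members with a single curated TSS and a peak, 5 had at least 90% of the peak's bases downstream of the TSS in both treatments, against 27.6% of such genes in the Veh list and 25.6% in the GSK list. The exception was Cd3e with 85.3% and 84.3%. The H3K4me1 peaks of Cd8a, Cd247, Cd3g and Cd3d were placed on the other side. At Cd8a the H3K4me1 region was centred 617 bp upstream of the TSS in Veh cells and 684 bp upstream in GSK cells, and at Cd247 it was centred 693 and 707 bp upstream.

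The 250 bases before the start sites of Cd8a, Cd3d and Cd3e are shown because those of Cd8a and Cd3d lay in the gap between H3K4me1 and H3K4me3 in both treatments, while that of Cd3e was covered by H3K4me3 over most of its length and held the summit of its GSK LSD1 peak. They are from RefSeq (GRCm38.p6), on the strand of the gene, at chr6:71373177-71373426 (plus strand), chr9:44981536-44981785 (plus strand) and chr9:45009612-45009861 (minus strand). Capitals mark matches on either strand to a set of motifs. These were TGTGGT for RUNX factors, GGAAGT for ETS factors, AGATAA for GATA factors, the E-boxes written CAGCTG and also CAGGTG, then CTTTGA for TCF factors and, for STAT factors, TTCNNNGAA.
Cd8a: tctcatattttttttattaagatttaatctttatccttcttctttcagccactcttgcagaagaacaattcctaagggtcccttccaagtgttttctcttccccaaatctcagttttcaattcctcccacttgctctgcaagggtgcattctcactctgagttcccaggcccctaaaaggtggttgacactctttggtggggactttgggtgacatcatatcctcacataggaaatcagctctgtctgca
Cd3d: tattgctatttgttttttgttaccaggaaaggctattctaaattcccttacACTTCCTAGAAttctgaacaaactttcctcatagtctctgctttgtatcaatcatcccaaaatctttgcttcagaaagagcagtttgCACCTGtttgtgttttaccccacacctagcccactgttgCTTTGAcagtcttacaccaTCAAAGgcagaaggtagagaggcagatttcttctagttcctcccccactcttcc
Cd3e: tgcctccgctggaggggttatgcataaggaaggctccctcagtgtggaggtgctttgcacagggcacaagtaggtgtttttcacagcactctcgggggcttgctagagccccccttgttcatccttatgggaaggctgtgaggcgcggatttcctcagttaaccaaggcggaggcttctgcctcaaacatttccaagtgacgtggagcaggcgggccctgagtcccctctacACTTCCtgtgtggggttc
The Cd3d window held 5 matches, of which ETS and STAT shared bases. It contained CTTTGA on both strands, and this TCF motif was found in 13.8% of all 32851 promoter windows of the table. ETS was found in 19.7% of them, the E-box CAGGTG in 17.2% and STAT in 7.02%. The Cd8a window held none of these letters, and the Cd3e window held a single ETS match. Promoter sequences of 6 members were matched in the table.

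At the Cd3 cluster, the H3K4me3 peaks of Cd3g, Cd3d and Cd3e kept their places while Pol II differed between the lists. Both were close to the whole lists. All 5 Veh H3K4me3 peaks of the cluster were shared, against 97.3% of the list. Of the 5 Veh Pol II peaks 2 were shared (40%, 11.8 to 76.9), against 39.1%. Cd3g and Cd3d are transcribed away from each other from neighbouring start sites. In GSK cells a Pol II peak lay at each of these, with a fold of 3.57 (−log10 p 9.69) at Cd3d and a fold of 2.60 (−log10 p 4.16, −log10 q 1.13) at Cd3g. No Veh Pol II peak lay at either. At Cd3e, Pol II was present in both lists, with a fold of 3.84 in Veh cells (46.6 percentile) and 4.75 in GSK cells (83.1 percentile). H3K27ac at the Cd3e TSS was found in Veh cells with a fold of 3.99, and LSD1 in GSK cells with a fold of 4.10 (−log10 p 6.56).

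A second group of peaks lay at the end of Cd3d. Between 3.9 and 5.38 kb downstream of the Cd3d TSS, the Veh list held 3 Pol II peaks with folds of 3.35, 3.54 and 2.91, and the GSK list 1 with a fold of 2.87. H3K27ac lay there in both treatments, with a fold of 2.66 in Veh and 3.25 in GSK cells. This was 1 of the 2 GSK H3K27ac peaks in all 5 loci. LSD1 lay there in both as well. The Veh list held 2 peaks, with a fold of 2.91 in an intron and 4.28 in the last exon, and the GSK list held 1 peak with a fold of 4.66 that overlapped both. The summits of the exonic peaks were 4839 bp (Veh) and 4825 bp (GSK) from the TSS. H3K4me1 followed just beyond the gene in both treatments. H3K4me3 was absent from this region. At the end of Cd3e, H3K4me2 was found in both treatments, with folds of 3.63 and 4.43, and these were the only H3K4me2 peaks of the cluster outside the promoters of the neighbours Ube4a and Mpzl2.

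**Figure D2:**
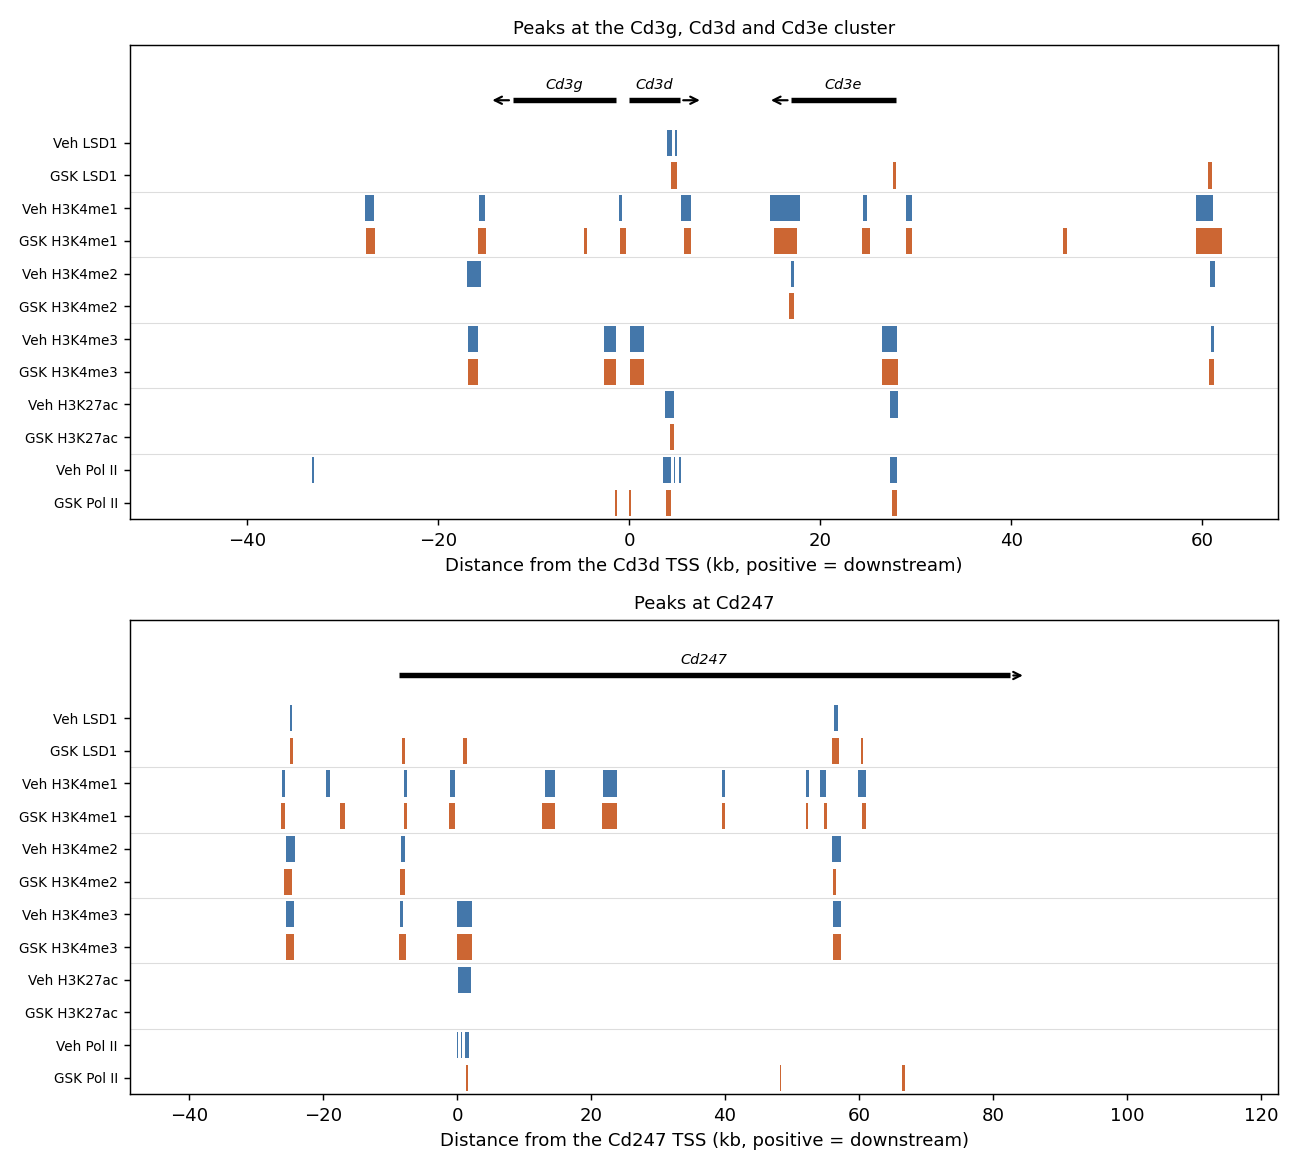
Peaks of the 12 lists (rows, Veh in blue and GSK in orange) at the Cd3 cluster (top) and Cd247 (bottom), by distance from the Cd3d or Cd247 TSS in kb, with gene bodies as black bars and arrows for the direction of transcription. The 3 promoter H3K4me3 regions of the Cd3 cluster recur in both treatments, the Pol II peaks at the Cd3g and Cd3d start sites are in the GSK row only, and the Cd247 bar begins upstream of 0 because RefSeq predicts further start sites there.

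At Cd247, H3K4me3 stood at 3 places in both treatments. One was the curated promoter. The second lay 8.14 kb (GSK) and 8.22 kb (Veh) upstream, where RefSeq holds start sites of predicted transcripts, with folds of 7.09 in Veh and 5.68 in GSK cells. It also carried H3K4me2 and H3K4me1 in both treatments and LSD1 in GSK cells. The third lay in intron 1, 56.7 kb downstream of the TSS, with folds of 4.36 and 4.18. It was bound by LSD1 in both treatments, with a fold of 4 (−log10 p 8.27) in Veh cells and 3.48 (−log10 p 5.89) in GSK cells, and it carried H3K4me2 in both. Of the Veh H3K4me3 peaks as a whole, 27.2% lay outside the TSS windows, and of the GSK peaks 30.1%. In Veh cells Pol II lay at the Cd247 TSS with folds of 4.33 and 2.67, and 1.55 kb into the gene, in intron 1, with a fold of 5.37. The GSK list held the intronic peak, with a fold of 5.41, and neither of the others.

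Of the 5 loci, the Cd8 pair was the one at which the fewest LSD1 peaks were shared. RefSeq annotates regulatory elements here named E8I to E8VI. All but E8V are annotated as enhancers, which drive Cd8 expression at different stages of T-cell life. E8V is annotated as a cis-regulatory region and holds fragments annotated as silencers. The Veh list held 8 LSD1 peaks, and 1 of them was overlapped by a GSK peak (12.5%, 2.24 to 47.1), against 54.6% of the whole list. Of the 8 peaks, 6 lay outside TSS windows, where the whole list shared 34.9%, and 1 of these 6 was shared (16.7%, 3.01 to 56.4). Neither promoter had a GSK peak. At Cd8a the Veh peak lay 709 bp inside the gene with a fold of 4.64 (−log10 p 12.6), and at Cd8b1 it lay 274 bp upstream of the TSS with a fold of 3.07 (−log10 p 5.43). In the whole list, 83.0% of the Veh LSD1 peaks at TSS windows were overlapped by a GSK peak.

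The Veh LSD1 peak of the locus with the highest −log10 p lay in E8V. It spanned chr6:71369419-71369867, with its summit 3.8 kb upstream of the Cd8a TSS, a fold of 5.13 (−log10 p 14.3, the 88.7 percentile of that measure in its list). It overlapped the DNase I hypersensitive site CII-1 and a fragment annotated as a silencer (chr6:71369353-71369603). No GSK LSD1 peak lay within 8.09 kb of it. The lowest −log10 p in the GSK LSD1 list was 3.01. Of 2914 Veh LSD1 peaks outside TSS windows with a −log10 p of at least 10, a level chosen after the values were seen, 70.9% were overlapped by a GSK peak. The Cd8 locus held 3 of them and none was overlapped. The other 2 lay in intron 1 of Cd8b1, with a −log10 p of 11.6, and 14.4 kb upstream of Cd8b1, with a −log10 p of 10.8. At TSS windows, 95.1% of the peaks of this strength were overlapped, and the Cd8a peak was not.

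The GSK list held 4 LSD1 peaks at the Cd8 locus. One was shared and lay between the genes, 25.2 kb downstream of the Cd8b1 TSS in Veh cells, with folds of 4.06 in Veh and 4.54 in GSK cells, on no other mark. The others had no overlapping Veh peak. They lay inside E8II with a fold of 3.89, at the start of E8I with a fold of 3.33, and at the hypersensitive site CIII-3 with a fold of 2.60 (−log10 p 3.57). A Veh LSD1 peak with a fold of 3.26 also lay in E8II, 300 bp from the GSK peak. E8II thus held LSD1 in both treatments, at places that did not overlap.

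The windows of 200 bases around these LSD1 summits are shown on the plus strand of mm10, with capitals as above, so that the 3 strong sites seen in Veh cells alone can be read beside a shared site and a site seen in GSK cells alone. They span chr6:71369528-71369727 (E8V), chr6:71325324-71325523 (Cd8b1 intron 1), chr6:71308310-71308509 (upstream of Cd8b1), chr6:71348076-71348275 (shared, around the GSK summit) and chr6:71341203-71341402 (E8II, GSK).
E8V, Veh: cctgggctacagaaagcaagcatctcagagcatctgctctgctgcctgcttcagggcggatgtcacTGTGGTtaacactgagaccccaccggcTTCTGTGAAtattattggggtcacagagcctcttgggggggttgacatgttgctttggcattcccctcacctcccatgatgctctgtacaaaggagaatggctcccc
Cd8b1 intron 1, Veh: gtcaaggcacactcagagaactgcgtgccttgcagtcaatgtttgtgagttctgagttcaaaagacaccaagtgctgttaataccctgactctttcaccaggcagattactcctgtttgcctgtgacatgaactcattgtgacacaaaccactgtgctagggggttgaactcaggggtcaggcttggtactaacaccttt
Upstream of Cd8b1, Veh: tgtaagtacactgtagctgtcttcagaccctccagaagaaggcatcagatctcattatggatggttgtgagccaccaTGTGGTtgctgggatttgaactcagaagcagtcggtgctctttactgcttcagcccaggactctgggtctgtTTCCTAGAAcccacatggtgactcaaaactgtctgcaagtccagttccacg
Between the genes, shared: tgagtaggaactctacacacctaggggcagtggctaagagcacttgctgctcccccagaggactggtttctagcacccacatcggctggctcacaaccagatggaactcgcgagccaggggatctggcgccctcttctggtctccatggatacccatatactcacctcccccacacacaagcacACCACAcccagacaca
E8II, GSK: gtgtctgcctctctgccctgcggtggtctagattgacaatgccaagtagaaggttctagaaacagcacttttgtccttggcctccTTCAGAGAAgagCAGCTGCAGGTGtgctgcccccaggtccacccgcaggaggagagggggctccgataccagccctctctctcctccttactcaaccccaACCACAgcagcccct
The RUNX motif occurred once in 4 of the 5 windows and was not in the Cd8b1 intron window, which held none of the motifs. STAT occurred in the E8V, upstream and E8II windows, and in 8.20% of all 12563 windows of this length around Veh LSD1 summits outside TSS windows. The RUNX motif was in 32.0% of those and CAGCTG in 11.7%. The E8II window also held CAGCTG directly followed by CAGGTG. The E8V window held no base that the reference marks as repeat. The upstream window was 76.5% repeat. The shared site was 60.0% repeat around its GSK summit, as shown, and 26.5% around its Veh summit. Of the 12563 windows, all around Veh summits, 22.5% were at least 50% repeat.

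H3K4me3 lay on the same Cd8 elements in both treatments, and H3K27ac in Veh cells alone. Pol II lay on E8I and E8II in both, but in Veh cells only at the edge of E8II. H3K4me3 covered E8VI and the end of E8II, with folds of 4.66 in Veh and 4.46 in GSK cells. It also covered a part of E8I, with folds of 2.54 and 2.76 over 3697 bp and 3373 bp of its 7670 bp. Both regions lie outside any TSS window. Pol II lay in E8I in both, with its highest fold at 3.36 in Veh and 3.78 in GSK cells, at separate places. A Veh peak (fold 3.96, chr6:71342423-71342846) overlapped only the last bases of E8II, which ends at 71342433, and reached into E8VI, which begins at 71342634. Its summit (71342547) lay between E8II and E8VI. The GSK peak that overlapped this Veh peak (fold 2.82, chr6:71342305-71342633) ended directly before E8VI. Another GSK peak elsewhere in E8II had a fold of 2.91. H3K27ac was found in Veh cells at the Cd8b1 promoter (fold 3.08), at E8VI and the last bases of E8II (2.68), and at E8I (2.75). In GSK cells it was found nowhere in the locus. Of all 7410 Veh H3K27ac peaks, 35.2% were overlapped by one of the 2751 GSK peaks. E8IV, inside Cd8b1, and E8III, at its end, held no peak in any of the 12 lists. E8V held LSD1 in Veh cells and H3K4me1 in GSK cells, with a fold of 2.21 (−log10 p 5.86). The H3K4me1 peak lay on the other fragment that RefSeq annotates as a silencer (chr6:71368736-71368949) and did not overlap the LSD1 peak. H3K4me2 was found inside Cd8a at separate places, in an exon in GSK cells (fold 3.48) and in intron 3 in Veh cells (fold 2.88).

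**Figure D3:**
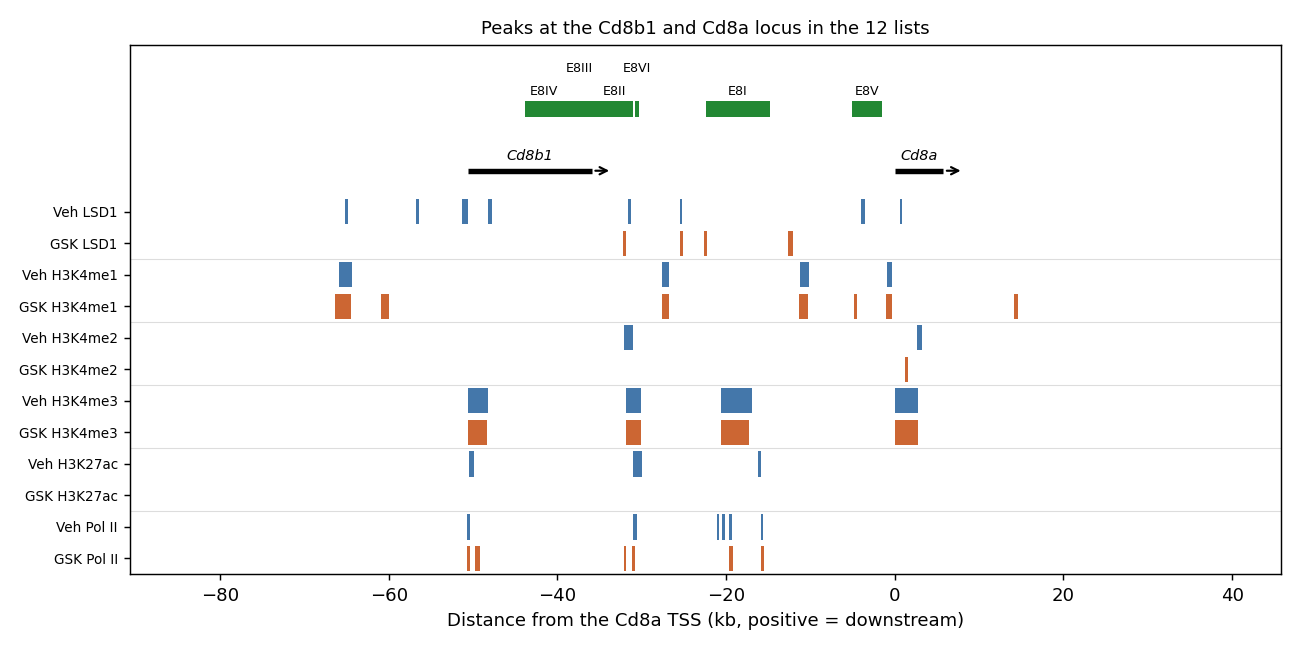
Peaks of the 12 lists (rows, Veh in blue and GSK in orange) at the Cd8 locus by distance from the Cd8a TSS in kb, with gene bodies in black and RefSeq elements E8I to E8VI in green. Of 8 Veh LSD1 peaks 1 coincides with a GSK peak, while all 4 H3K4me3 regions recur and the GSK H3K27ac row is empty. The whole GSK H3K27ac list held 2751 peaks and the Veh list 7410.

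The promoters of Cd8a and Cd8b1 differed from each other in Pol II. Cd8b1 had among the higher-ranking member peaks, with a fold of 6.05 in Veh cells (84.0 percentile) and 5.44 in GSK cells (89.7 percentile). No Pol II peak lay at Cd8a in either list. H3K4me1 upstream of Cd8a had a fold of 3.43 in Veh and 2.54 in GSK cells, a percentile of 28.4 and 7.93, and a −log10 p of 12.7 and 8.07. At Cd3d and Cd3g, which share 1 region, the percentile of H3K4me1 was higher in GSK cells by 8.13 points by fold and by 27.5 points by −log10 p, and at Cd247 by 12.2 and 17.6 points. At Cd8a it was lower by either measure. Zbtb7b had 2 H3K4me1 regions near its start sites, with percentiles of fold of 2.95 and 2.81 in Veh cells and 2.34 and 3.88 in GSK cells.

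Cd4 had no peak of any antibody within 1 kb of its TSS. This held for all 12 lists, as it did for 7278 of 20895 protein-coding genes outside the loci. The gene was not empty. In intron 1, LSD1 was bound in both treatments, at chr6:124886011-124886388 in Veh cells and chr6:124885973-124886463 in GSK cells, with summits 2035 and 2066 bp downstream of the TSS. The folds were 7.41 and 6.57 and the −log10 p values 18.2 and 13. The Veh fold was the highest of the 22 Veh LSD1 peaks in the loci and lay at the 94.3 percentile of its list. H3K4me1 covered the site in both treatments, with folds of 4.84 and 4.02. H3K4me2 was found beside it in GSK cells alone, with a fold of 5.04, a −log10 p of 7.03 and its centre 2418 bp from the TSS. A GSK Pol II peak with a fold of 3.60 (−log10 p 5.41) lay in intron 3, and H3K4me3 and H3K27ac were not found in the gene.

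The window around the Veh LSD1 summit in Cd4 intron 1 (chr6:124886065-124886264, mm10, plus strand, the opposite strand to Cd4) is shown because LSD1 had its highest fold of the 5 loci there in both lists.
Cd4 intron 1: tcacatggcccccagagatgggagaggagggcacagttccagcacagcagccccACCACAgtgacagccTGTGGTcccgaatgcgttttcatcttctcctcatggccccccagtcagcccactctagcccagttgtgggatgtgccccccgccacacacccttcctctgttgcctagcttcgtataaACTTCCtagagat
It held 2 RUNX matches in opposite directions, separated by a few bases, and 1 ETS match. The single motif TGTGGT was found in 32.0% of windows around Veh LSD1 summits outside TSS windows, and GGAAGT in 21.2%. The Cd4 silencer is known to lie in this intron, but RefSeq annotates no element at Cd4, and whether the peak coincides with the silencer was not tested.

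Zbtb7b, whose product opposes the CD8 fate, carried H3K4me3 without Pol II. The same held for Cd8a in both treatments and for Cd3d and Cd3g in Veh cells. The H3K4me3 region at the upstream start sites of Zbtb7b spanned 2356 bp in Veh and 2723 bp in GSK cells with folds of 3.49 and 3.26. Neither list of Pol II, H3K27ac or LSD1 had a peak within 1 kb of any of its 3 curated TSSs. H3K4me2 lay on both flanks of this region in Veh cells, with folds of 2.62 and 2.44, and at neither in GSK cells. These folds were at the bottom of the Veh list, at the 0.168 and 0.0164 percentile. The Veh H3K4me2 list held 15219 peaks and the GSK list 9437. Within the gene, H3K4me2 was found in Veh cells at 2 more sites, in intron 1 (fold 3.79) and in the last exon (fold 6.45). At both of these sites the GSK list held short H3K4me3 peaks of 177 and 185 bp, with folds of 4.15 and 4.02. They were the only 2 H3K4me3 peaks of the loci that were not in both lists. Both were weak calls, with a −log10 p of 8.44 and 6.02 (11.7 and 1.71 percentile), where the lowest value of the list was 5.22. H3K4me1 lay at both sites in both treatments, and LSD1 spanned the intron 1 site in GSK cells with a fold of 3.75.

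LSD1 was shared upstream of Zbtb7b. The peak lay in an intron of Gm15417, 3066 bp upstream of the nearest Zbtb7b TSS in Veh and 2880 bp upstream in GSK cells, with folds of 4.07 and 4.24, and H3K4me1 covered it in both treatments. The window around its Veh summit (chr3:89396344-89396543, mm10, plus strand) is shown as the shared LSD1 site of this gene.
Upstream of Zbtb7b: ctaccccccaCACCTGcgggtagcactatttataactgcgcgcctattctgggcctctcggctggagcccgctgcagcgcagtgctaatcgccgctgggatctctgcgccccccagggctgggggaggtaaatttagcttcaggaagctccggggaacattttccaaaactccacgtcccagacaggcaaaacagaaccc
It held 1 E-box CAGGTG, which was found in 16.7% of windows around Veh LSD1 summits outside TSS windows, and no RUNX match. The locus is crowded, and 10 other genes have a TSS in it.

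**Figure D4:**
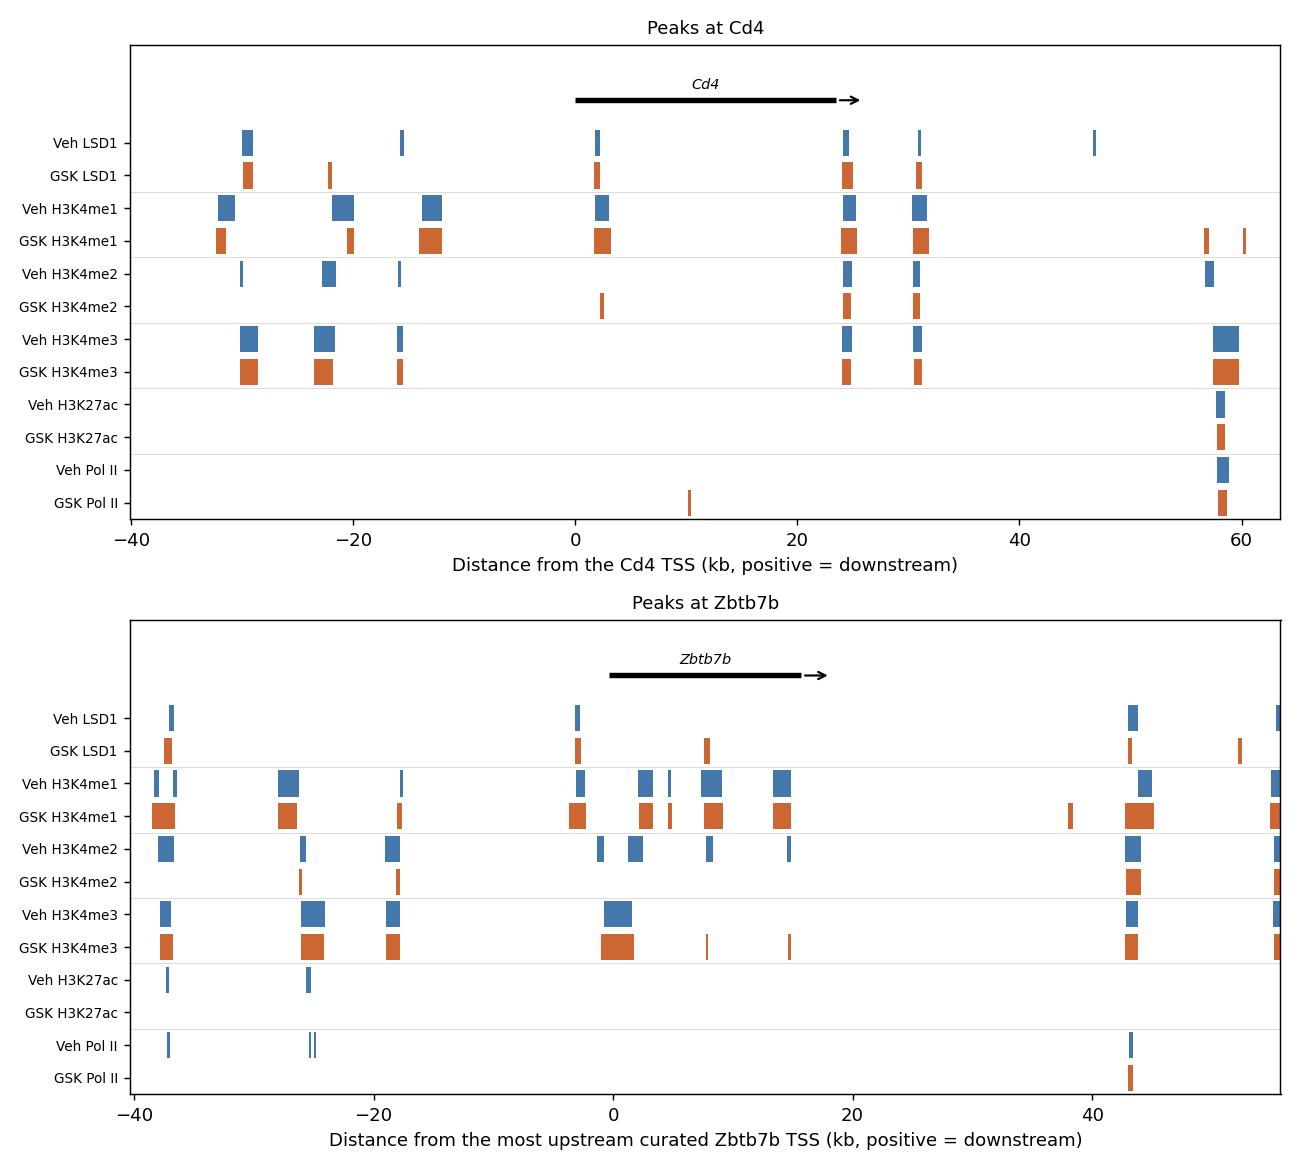
Peaks of the 12 lists (rows, Veh in blue and GSK in orange) at Cd4 (top) and Zbtb7b (bottom) by distance in kb from the TSS, drawn in the direction of transcription. The Cd4 start site is bare in every row, LSD1 and H3K4me1 recur about 2 kb inside Cd4, and H3K4me3 without Pol II recurs at Zbtb7b.

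Over all 5 loci, shared peaks were counted for each antibody and set beside the same share of the whole lists. All 25 Veh H3K4me3 peaks were overlapped by a GSK peak (100%, 86.7 to 100), against 97.3% of the whole list, and 25 of 27 GSK peaks were found in Veh cells (92.6%, 76.6 to 97.9) against 91.1%. The edges of the 25 pairs shifted by a summed median of 60 bp, and those of 15322 pairs in the whole lists by 84 bp. The GSK fold divided by the Veh fold ran from 0.927 at Cd8a to 1.04 at Cd3d among the member promoters. For H3K4me1, 38 of 39 Veh peaks were shared (97.4%, 86.8 to 99.5) against 87.8%, and 37 of 46 GSK peaks (80.4%, 66.8 to 89.3) against 75.2%.

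For the other antibodies the shares depended on which list was counted. For H3K4me2, 10 of 23 Veh peaks were shared (43.5%, 25.6 to 63.2) against 55.3% of the list, and 10 of 12 GSK peaks (83.3%, 55.2 to 95.3) against 89.2%. For Pol II the counts were 9 of 19 Veh peaks (47.4%, 27.3 to 68.3) against 39.1% and 9 of 16 GSK peaks (56.2%, 33.2 to 76.9) against 39.6%. For H3K27ac, 2 of 9 Veh peaks were shared (22.2%, 6.32 to 54.7) against 35.2%, and both GSK peaks were, against 95% of the list. The GSK share of the Veh and GSK peaks together ran from 18.2% for H3K27ac (5.14 to 47.7), where the whole lists gave 27.1%, to 54.1% for H3K4me1 (43.6 to 64.3), where they gave 53.9%. Each of these intervals included the value of the whole list.

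Of the LSD1 peaks, 12 of 22 in Veh cells were shared (54.5%, 34.7 to 73.1) against 54.6%, and 11 of 22 in GSK cells (50%, 30.7 to 69.3) against 57.8%. Outside the Cd8 locus 11 of 14 Veh peaks were shared (78.6%, 52.4 to 92.4), with 2 of 2 at the Cd3 cluster, 2 of 2 at Cd247, 4 of 6 at Cd4 and 3 of 4 at Zbtb7b. Of these 14 peaks, 7 lay outside TSS windows and 5 of the 7 were shared (71.4%, 35.9 to 91.8). The Cd8 locus was singled out after its values were seen, and its difference from the other loci was not tested.

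**Figure D5:**
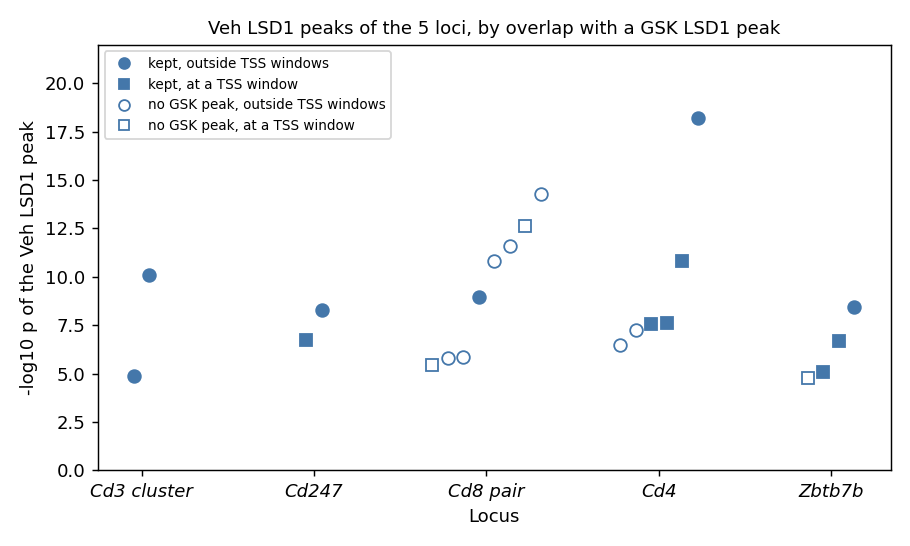
The −log10 p of each of the 22 Veh LSD1 peaks by locus, filled where a GSK LSD1 peak overlapped it and open where none did, with squares at TSS windows and circles elsewhere. The open symbols above 10 all belong to the Cd8 pair, and the highest value, 18.2 in Cd4 intron 1, is filled.

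The LSD1 sites outside TSS windows were also read against the other antibodies. Of the 6 Veh sites that had an overlapping GSK peak, those in Cd4 intron 1 and upstream of Zbtb7b lay on H3K4me1. The site in Cd247 intron 1 lay on H3K4me2 and H3K4me3. The 2 at the end of Cd3d lay on Pol II, and the intronic one also on H3K27ac. The shared Cd8 site lay on no other peak. In the whole list, 11.3% of such sites lay on no peak of another antibody. Of the 7 without a GSK peak, 4 lay on none in either treatment, against 47.5% in the whole list. These were 3 at the Cd8 locus, with the E8V and Cd8b1 intron sites among them, and 1 in an exon of P3h3 at the Cd4 locus.

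Other genes of the pathway were read in the same way. Among 20 T-cell receptor signalling genes (such as Lck and Zap70, the proximal kinases, and Lat, their adaptor), 19 had promoter H3K4me3 in both treatments. Of all genes, 50.2% had it in Veh cells and 51.3% in GSK cells. Pol II lay at 15 of the 20 in Veh and 14 in GSK cells (29.4% and 25.0% of all genes), and H3K27ac at 14 and 5 (20.6% and 8.61%). LSD1 lay at 10 and 10 (36.5% and 41.8%), H3K4me1 at 15 and 13 (30.4% and 36.9%), and H3K4me2 at 3 and 0 (39.2% and 28.3%). All 5 genes with GSK H3K27ac had it in Veh cells. The gene whose calls differed in most antibodies was Csk, the kinase that holds LCK inactive. In Veh cells it had H3K4me1 (15 percentile of fold), H3K27ac (6.5 percentile) and Pol II (39.7 percentile), and in GSK cells none of these. Cd5, Cd6, Prkcq and Thy1 differed in 2 antibodies each.

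Among 16 regulators of the co-receptor genes, all 16 had promoter H3K4me3 in both treatments. LSD1 lay at 11 in Veh and 13 in GSK cells, where 36.5% and 41.8% of all genes had it. Pol II lay at 11 and 9 (29.4% and 25.0% of all genes), H3K27ac at 8 and 5 (20.6% and 8.61%), H3K4me1 at 7 and 10 (30.4% and 36.9%), and H3K4me2 at 8 and 6 (39.2% and 28.3%). Lef1, a transcription factor of naive and memory T cells, differed in 3 antibodies, the highest count in the list. It had LSD1 at the 2.5 percentile in Veh and 0.123 in GSK cells, H3K4me2 (0.473 percentile) and H3K27ac (3.96 percentile) in Veh cells alone, and Pol II in GSK cells alone (0.367 percentile). Runx3, Satb1, Myb, Ets1, Tcf3 and Tcf12 differed in 2 antibodies each. At Runx3, whose product is known to repress Cd4 in cytotoxic T cells, Pol II was at the 96.2 percentile in Veh and 95.6 in GSK cells.

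The protein-coding genes whose 12 promoter percentiles were most like those of Cd8a were Itgam, Fam71b and P2rx7, with mean absolute differences of 1.95, 3.43 and 3.69 points over the 12 lists. The median over 20895 genes was 22.2. Like Cd8a, all 3 had promoter LSD1 in Veh cells and not in GSK cells, with percentiles of 59.5, 64.9 and 57.7. Such likeness follows from how the genes were picked. Unlike Cd8a, Itgam and P2rx7 had no H3K4me3, and Fam71b had H3K4me2 and H3K27ac in Veh cells. For Cd3e the nearest genes were Dcaf1 (4.84), followed by Vrk3 and Zfp473 (5.73 each), which had the same values as each other. All 3 had LSD1 in GSK cells only, H3K27ac in Veh cells only, and H3K4me3 and Pol II in both. Here too the likeness follows from how the genes were picked. Unlike Cd3e, Vrk3 and Zfp473 also had H3K4me2 in Veh cells.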

How the data were processed

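ChIP-seq of cultured CD8+ T cells gave 12 peak lists, 1 per antibody and treatment, and 4 input samples were not analysed here. Bowtie2 was used by the authors to map reads to mm10, of which uniquely mapped ones were kept. Duplicates were removed with Samtools, and MACS2 called peaks in each library against input, by the study's methods at a p-value cutoff of 0.001. The LSD1 and Pol II lists reached down to a −log10 p of 3.00 to 3.01. The histone lists ended higher, at a lowest −log10 p of 4.99 to 6.47 and a lowest −log10 q of 3.01 to 3.03. The deposited files hold, for each peak, a fold enrichment (the ratio over local background), −log10 p, −log10 q and a score derived from them. They hold no reads, so depth was not computed. By the study's reporting summary, the GSK library had far fewer unique read pairs than the Veh library for H3K27ac. It had fewer for H3K4me2 and LSD1 too, and more for H3K4me1, H3K4me3 and Pol II. Whether depth changed the length of a list was not tested. LSD1 and Pol II peaks are narrow with a summit, and histone peaks are broad with a fold averaged over the region, so folds were compared within antibodies only.

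Members and gene lists were chosen with earlier results of these data known. RefSeq (GRCm38.p6) curated transcripts gave 26089 genes. An overlap of 1 bp counted. Peaks outside TSS windows were placed in an exon, intron or intergenic by summit (narrow) or centre (broad). Percentiles rank fold within a list. The named genes were the members, the listed genes with most differing calls, and the 3 most alike. Genes of no member were named where their TSS lay in a locus. The overlap code was tested on simulated data. The split of LSD1 peaks by −log10 p, their overlap with other antibodies in the whole list, the repeat share (soft-masked bases of the reference) and the side of H3K4me3 peaks were chosen after the values were seen. Python 3.11.15 was used with numpy 2.4.6 and pysam 0.24.0. Some marker genes and 1 sequence are not reported here.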

Additional observations from a re-analysis of the deposited data

How the results depend on the processing

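Of 38 alternatives for how many Veh peaks at the loci had an overlapping GSK peak, 37 stayed within the interval of the reported value. The exception was H3K27ac with lists of equal length, where 0 of 3 Veh peaks were overlapped (0%, 0 to 56.1). Of 26 alternatives for the GSK share, 25 stayed within it, and lists of equal length moved H3K4me2 to 52.2%. Leaving out peaks at the TSSs of other genes, chosen after seeing the data, moved neither. Of 64 alternatives for the number of members with a promoter peak, 53 stayed within 1.5 times. All of these tallies include a −log10 p of at least 5 in the histone lists, which could hardly move a value. The lowest −log10 p of those lists was 4.99 to 6.47. Intervals were also wide where peaks were few, as for H3K27ac (6.32 to 54.7), so staying within them was a weak check. GSK LSD1 gave 4 members with a window of 2.5 kb, and 1 with the summit in the window, with −log10 q of at least 2 and with −log10 p of at least 5. H3K4me3 gave 4 in each treatment with the centre in the window. Veh H3K4me2 gave 2 with all RefSeq TSSs and 0 at equal length, GSK H3K4me2 gave 2 at 2.5 kb and 1 with all RefSeq TSSs, and Veh H3K27ac gave 1 at equal length. Ranked by −log10 p, the GSK minus Veh percentile turned to 1.76 for H3K4me3 at Cd247, 1.37 for H3K4me3 at Cd8b1, and −1.20 for H3K4me1 (of different regions) and 2.48 for H3K4me3 at Zbtb7b. At equal length it turned to −0.0507 for H3K4me3 at Cd3g. The causes were not tested. No paired analysis was possible because each antibody and treatment has 1 library. A missing peak shows that a call was not made, not that the protein or mark was absent.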
